A study of Mus musculus with 2 samples.

Results

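Adhesion receptors were examined in cultured mouse CD8+ T cells as 9 genes: 6 integrin chains (Itgae, Itgal, Itga4, Itgb1, Itgb2 and Itgb7), the integrin ligand Icam1, the hyaluronan receptor Cd44 and the selectin ligand Selplg. A probe set was taken as a member when its platform annotation named one of these genes and no other, which gave 10 probe sets for the 9 genes, among 23521 probe sets with a value for 22180 genes in all. The bezafibrate group was 1 culture, kept from start to end with bezafibrate at 30 µM, a lipid-lowering fibrate that activates the nuclear receptors called peroxisome proliferator-activated receptors (PPARs). The DMSO group was 1 culture with dimethyl sulfoxide, the solvent of the drug. In both groups naive CD8+ T cells had been activated on beads coated with antibodies to CD3 and CD28, fed interleukin-2 at 100 U/mL and expanded to day 13; the labels give no strain, age or number of mice. The comparison asks which genes differ when T cells grow with such an agonist. With 1 array in each group there was no replicate error and no test, and every ratio compares 2 arrays.

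Integrins are pairs of 1 α and 1 β chain that hold T cells to other cells and to matrix. They rest in a bent, low-affinity form until signals from the T cell or chemokine receptors bring talin and kindlin to the tail of the β chain. Selectin ligands make T cells roll on vessel walls, integrins then arrest them, and both CD44 and certain integrins hold cells within tissue.

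Levels below are log2 signals as deposited, made with RMA, and a ratio is the bezafibrate value minus the DMSO value on that scale. Since RMA makes the overall distributions of arrays alike, each ratio is relative to the other genes. A gene counted as above the floor if, on the array where it was brighter, its signal passed the median of all genes, 4.85 with bezafibrate and 4.88 with DMSO, and 11446 genes did. Receptor genes of smell and pheromone sensing, taken as silent in T cells, had a 95th percentile of 4.68 with bezafibrate and 4.71 with DMSO, called the background limit. Each of the 9 members lay above the floor and above that limit on both arrays. Signals of different genes depend on their probes, so levels are compared only within a gene.

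With each gene taken by its brightest probe set, Cd44 was the member with the highest ratio and Itgae the one with the lowest. A dimmer Selplg probe set went lower than Itgae, at −0.54. Both chains of the αEβ7 integrin and Selplg were lower with bezafibrate, and Cd44 and the remaining 5 members were higher. No member differed by as much as 1.5-fold. Genes were counted past a limit of 0.32 on the log2 scale, in either direction. At that limit 1 member was higher (Cd44), where 5.83% of all genes above the floor were, and 1 was lower (Itgae), where 6.33% were. With ratios centred on housekeeping genes, those background shares were 8.53% and 4.14%, and the member counts stayed at 1 and 1. At 1.5-fold the counts were 0 higher and 0 lower, beside 0.664% and 0.524% of all genes. Counted by sign alone, 6 members were higher and 3 lower, beside 48.4% and 49.6% of all genes. The median ratio over the members was 0.15, beside 0 over all genes above the floor. With 9 genes these counts are not read as a property of the group, and the description that follows is of single genes.

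**Figure D1:**
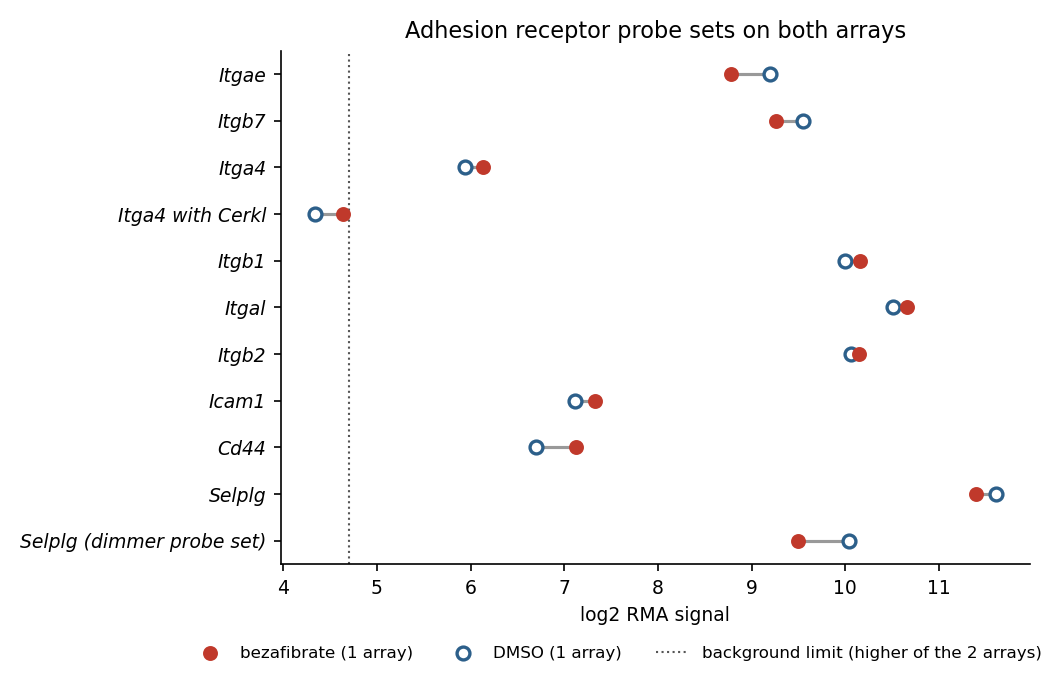
Log2 RMA signal (horizontal axis) of each probe set that names an adhesion receptor gene, 1 row per probe set, with the bezafibrate array as filled red points, the DMSO array as open blue points and the background limit as a dotted line. Itgae, Itgb7 and both Selplg probe sets lie lower with bezafibrate, Cd44 shows the widest gap in the other direction, and only the probe set shared by Itga4 and Cerkl lies below the background limit; rows are not to be compared with each other.

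Itgae encodes αE, also named CD103, which pairs with the β7 chain to bind E-cadherin on epithelial cells and is a mark of T cells resident in epithelia. Its probe set (17252574) read 8.78 on the bezafibrate array and 9.19 on the DMSO array. Itgae was thus 1.33-fold lower with bezafibrate, a ratio of −0.41. Of the 11446 genes above the floor, 328 (2.87%) had a ratio as low or lower. Among the 1150 genes within 0.5 of its mean level, 95% had ratios from −0.38 to 0.33, and Itgae lay below that range. Itgb7 (probe set 17322163), the β chain of both αEβ7 and the gut-homing receptor α4β7, read 9.26 with bezafibrate and 9.55 with DMSO. It was 1.22-fold lower, with a ratio of −0.29 that 8.61% of genes equalled or went below. Among the 785 genes of like level the range was −0.38 to 0.33, so Itgb7 lay inside it. The chains of αEβ7 therefore differed in the same direction, with ratios that were 0.12 apart.

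Itga4 encodes α4, which pairs with β1 to bind VCAM-1 and fibronectin and with β7 to bind MAdCAM-1 of gut vessels. Its own probe set (17372307) read 6.13 with bezafibrate and 5.94 with DMSO, a ratio of 0.19 that 16.6% of genes equalled or passed. A further probe set (17387246) names both Itga4 and its neighbour Cerkl, so it is no member; it read 4.64 with bezafibrate and 4.34 with DMSO, below the background limit on both arrays, with a ratio of 0.30. Itgb1, the β chain shared by the matrix-binding integrins, read 10.15 with bezafibrate and 9.99 with DMSO (probe set 17507014), a ratio of 0.16. The α4 chain and its β1 partner thus had ratios 0.03 apart, whereas α4 and its β7 partner went in opposite directions with ratios 0.48 apart. RefSeq promoter sequences (assembly GRCm38.p6) were matched for 5 of the 9 members, and those of these 3 partner chains are shown because their ratios differ in sign. Each run gives the 250 bases before the annotated start, 5′ to 3′ along the gene, with matches to the motifs listed after the sequences in capitals. Itgb7 lies at chr15:102231936-102232185 on the minus strand, Itga4 at chr2:79255176-79255425 on the plus strand and Itgb1 at chr8:128685404-128685653 on the plus strand.
Itgb7: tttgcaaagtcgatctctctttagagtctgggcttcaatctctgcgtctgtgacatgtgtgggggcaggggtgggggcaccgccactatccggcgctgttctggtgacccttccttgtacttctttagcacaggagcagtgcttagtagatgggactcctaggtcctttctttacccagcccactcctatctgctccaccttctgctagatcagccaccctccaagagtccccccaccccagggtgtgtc
Itga4: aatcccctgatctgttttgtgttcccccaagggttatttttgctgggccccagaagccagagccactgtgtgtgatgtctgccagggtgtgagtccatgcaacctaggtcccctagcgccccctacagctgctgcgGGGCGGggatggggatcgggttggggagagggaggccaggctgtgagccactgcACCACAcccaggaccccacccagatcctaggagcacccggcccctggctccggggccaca
Itgb1: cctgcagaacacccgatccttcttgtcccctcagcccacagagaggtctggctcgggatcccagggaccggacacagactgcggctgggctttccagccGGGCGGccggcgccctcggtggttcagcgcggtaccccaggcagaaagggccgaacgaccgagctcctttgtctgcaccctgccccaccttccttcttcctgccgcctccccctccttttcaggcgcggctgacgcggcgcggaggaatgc

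The motifs searched on both strands were the GC box (GGGCGG), the TATA box (TATAAA), the AP-1 site (TGANTCA), the RUNX core (TGTGGT), the ETS core (GGAAGT), the SMAD box (GTCTAGAC), the PPAR direct repeat (2 copies of AGGTCA with 1 base between) and the NF-κB consensus; no motif in the set contains another. Itga4 and Itgb1 each held 1 GC box, starting at positions −114 and −151 counted from the annotated start, and Itga4 a RUNX core at −60. A GC box occurs in 32.9% and a RUNX core in 14.2% of the 27025 RefSeq promoters of that length. Itgb7 held none of the 8 motifs in this window. It had 5 CpG dinucleotides and a GC content of 56.0%, against 6 and 64.0% for Itga4 and 21 and 68.0% for Itgb1. These matches are descriptions of the sequence and were not set against the ratios.

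Itgal and Itgb2 encode αL and β2, the chains of LFA-1, the main integrin by which T cells hold antigen-presenting and target cells. Itgal (probe set 17483264) read 10.66 with bezafibrate and 10.51 with DMSO, a ratio of 0.15. Itgb2 (probe set 17234647), whose product also pairs with the α chains of myeloid integrins, read 10.14 with bezafibrate and 10.06 with DMSO, a ratio of 0.09. Both lay in the middle of the distribution, where 22.9% and 33.4% of genes had ratios as high or higher. Icam1 encodes the ligand of LFA-1, which activated T cells also carry and use in contacts with each other. It read 7.33 with bezafibrate and 7.11 with DMSO (probe set 17515074), 1.16-fold higher, and 13.7% of genes equalled or passed its ratio of 0.22. The receptor chains and the ligand thus had ratios of one sign, each within the central 95% of genes of like level.

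Cd44 encodes a receptor for hyaluronan and osteopontin that is kept at high level on antigen-experienced T cells. It read 7.13 on the bezafibrate array and 6.70 on the DMSO array (probe set 17388733), 1.35-fold higher with bezafibrate. Of all genes above the floor, 251 (2.19%) had a ratio as high as its 0.43 or higher. Among 2548 genes of like level, 95% had ratios from −0.38 to 0.42, and Cd44 lay just above that range. With 1 probe set the array does not separate the splice forms for which CD44 is known. Its promoter is shown because Cd44 had the highest ratio; it lies at chr2:102901666-102901915 on the minus strand of GRCm38.p6.
Cd44: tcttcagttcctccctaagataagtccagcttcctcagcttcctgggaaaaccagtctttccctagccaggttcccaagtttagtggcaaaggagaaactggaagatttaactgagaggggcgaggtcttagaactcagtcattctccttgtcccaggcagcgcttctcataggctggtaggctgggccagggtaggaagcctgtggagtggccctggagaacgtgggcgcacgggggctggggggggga

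That window held 5 CpG dinucleotides, had a GC content of 56.4% and matched none of the 8 motifs, so it carries no capitals. The Icam1 window, of 65.2% GC, held 1 GC box starting at −17.

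**Figure D2:**
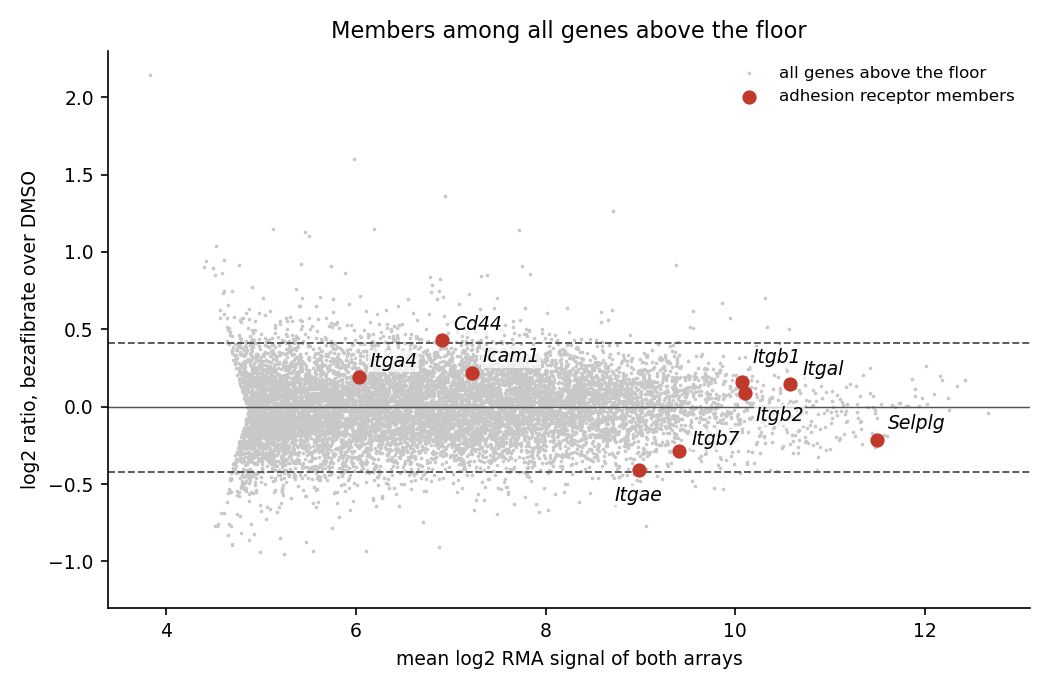
Log2 ratio of bezafibrate over DMSO (vertical axis) against the mean log2 RMA signal of both arrays (horizontal axis), with 1 grey point for each of the 11446 genes above the floor and red points for the members; dashed lines mark the central 95% of those genes, −0.42 to 0.41. Each gene is shown by its brightest probe set, so the dimmer Selplg probe set at −0.54 is not drawn. Cd44 at 0.43 lies just above the upper line, Itgae at −0.41 just inside the lower one, and the other 7 members lie between them.

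Selplg encodes PSGL-1, the mucin-like protein that binds selectins once it has been decorated with sialylated, fucosylated sugars. It was the only member with more than 1 probe set of its own, and both were lower with bezafibrate. The brighter (17451437) read 11.39 with bezafibrate and 11.60 with DMSO, 1.16-fold lower with a ratio of −0.21. This lay inside the range of −0.25 to 0.19 of 66 genes of like level. The dimmer (17440768) read 9.50 with bezafibrate and 10.04 with DMSO, 1.45-fold lower with a ratio of −0.54. Of genes above the floor, 0.839% equalled that ratio or went below. It lay below the range of −0.37 to 0.34 of 516 genes of like level. The probe sets therefore gave one direction and sizes 0.33 apart. When both were averaged, the ratio of Selplg was −0.38 and 2 members in place of 1 were lower past the limit.

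Beyond the members, 8 lists of related genes held 112 names, of which 105 had a value and 78 lay above the floor. At the limit of 0.32, 3 of these 78 were higher and 2 lower, beside 5.83% and 6.33% of all genes. Counts by sign in the lists below stand beside 48.4% higher and 49.6% lower among all genes above the floor. With few genes in each list, none of these counts is read as a property of a list. Among 14 measured other α chains, 5 lay above the floor with a median ratio of 0.00, and 0 passed the limit. Itgav, the α chain of the integrins that activate latent TGF-β, read 8.64 with bezafibrate and 8.47 with DMSO, a ratio of 0.18, although a dimmer probe set had −0.06. Itga5, of the fibronectin receptor, had a ratio of −0.19, Itga2 of the collagen receptor −0.05 and Itga2b of the platelet integrin 0.10. Itga1, a collagen receptor chain of resident T cells, lay below the floor at 4.82 with bezafibrate and 4.87 with DMSO. Of 5 other β chains 2 were above the floor, Itgb3 with a ratio of 0.07 and Itgb4 with −0.14. The myeloid chains Itgam, Itgax and Itgad were within background on both arrays.

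The cytoplasmic proteins that switch integrins on and off had 18 of 20 measured genes above the floor, 8 higher and 10 lower, with a median ratio of −0.02. Past the limit, 0 were higher and 1 was lower, beside 5.83% and 6.33% of all genes above the floor. Tln1 (talin) and Fermt3 (kindlin-3), which bind the β tails and open the integrin, had ratios of −0.04 and −0.05. Stk4, a kinase that acts with RASSF5 in T cell adhesion, had the highest at 0.25, followed by Rasgrp1, an exchange factor for Ras, at 0.12. The gene past the limit was Dok1, an adaptor that competes with talin for β tails, which read 5.91 with bezafibrate and 6.32 with DMSO, 1.33-fold lower. Itgb1bp1, whose product also holds talin off the β1 tail, had a ratio of −0.22, but a second probe set, within background, had 0.29.

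Genes for integrin ligands were mostly dim, with 4 of 10 above the floor. All 4 of these were lower, where 49.6% of all genes above the floor were, at a median of −0.21. Icam2, a second ligand of LFA-1, was the only one past the limit, where 6.33% of all genes above the floor were lower. It read 5.37 on the bezafibrate array and 5.80 on the DMSO array, a ratio of −0.43. Cdh1, which encodes E-cadherin, the ligand of αEβ7, read 9.54 with bezafibrate and 9.78 with DMSO, a ratio of −0.24. A dimmer Cdh1 probe set read 4.71 with bezafibrate and 5.62 with DMSO, a ratio of −0.91. Madcam1 and Icam4 had ratios of −0.18 and −0.06, and Vcam1 was within background on both arrays. Of 15 other adhesion receptors above the floor, 9 had ratios below 0 and 6 above it, the median was −0.01, and 0 passed the limit. Pecam1, which binds its own kind across cell contacts, had the highest ratio at 0.30 (7.14 with bezafibrate and 6.83 with DMSO). Slamf6 had 0.19, but a second Slamf6 probe set, within background, had −0.09. Cd2 and its ligand Cd48 had the lowest, −0.14 and −0.13.

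Genes of selectins and of the sugar and sulfate modification of PSGL-1 had 12 of 14 listed genes above the floor. Of these 12, 5 were higher and 7 lower, with a median ratio of −0.03. Past the limit, 2 were higher and 0 lower, beside 5.83% and 6.33% of all genes above the floor. Tpst1, a tyrosine sulfotransferase of the kind that modifies the P-selectin binding site, read 6.34 with bezafibrate and 5.97 with DMSO, 1.29-fold higher. C1galt1c1, the chaperone of the enzyme that extends O-linked sugars, read 5.87 with bezafibrate and 5.53 with DMSO, 1.26-fold higher. Fut7, the fucosyltransferase that completes selectin ligands in T cells, had a ratio of −0.23, the branching enzyme gene Gcnt1 0.05 and the sialyltransferase gene St3gal3 −0.32, just short of the limit. The listed genes below the floor were the endothelial selectins Selp and Sele, both within background.

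Genes for ligands, linkers and sheddases of CD44 and for other hyaluronan-binding proteins had 6 of 10 measured members above the floor. All 6 were higher, beside 48.4% of all genes above the floor, although none reached the limit and their median was 0.14. With 6 genes this is not read as a property of the list. Adam17, a protease that cuts surface receptors, had a ratio of 0.17 and Hmmr, a hyaluronan-binding protein of dividing cells, 0.15. Ezr and Msn, which tie CD44 to actin, had ratios of 0.11 and 0.01, but a second Msn probe set, within background, had 0.40. The hyaluronan synthases Has1, Has2 and Has3 were within background on both arrays. Among genes of TGF-β signalling, which is known to induce Itgae, and of factors known to act on it, 16 of 17 lay above the floor, of which 6 were higher, 9 lower and Prdm1 equal on both arrays; the median was −0.04. Tgfbr1, a receptor chain, was the only one past the limit, where 5.83% of all genes above the floor were higher. It read 6.83 with bezafibrate and 6.49 with DMSO. Skil, a target and inhibitor of the pathway, had a ratio of 0.28, Tgfbr2 −0.12, Tgfb3 −0.24 and Klf2, a factor of circulating T cells, −0.30. Runx3, which is needed for Itgae in CD8+ T cells, had −0.10.

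**Figure D3:**
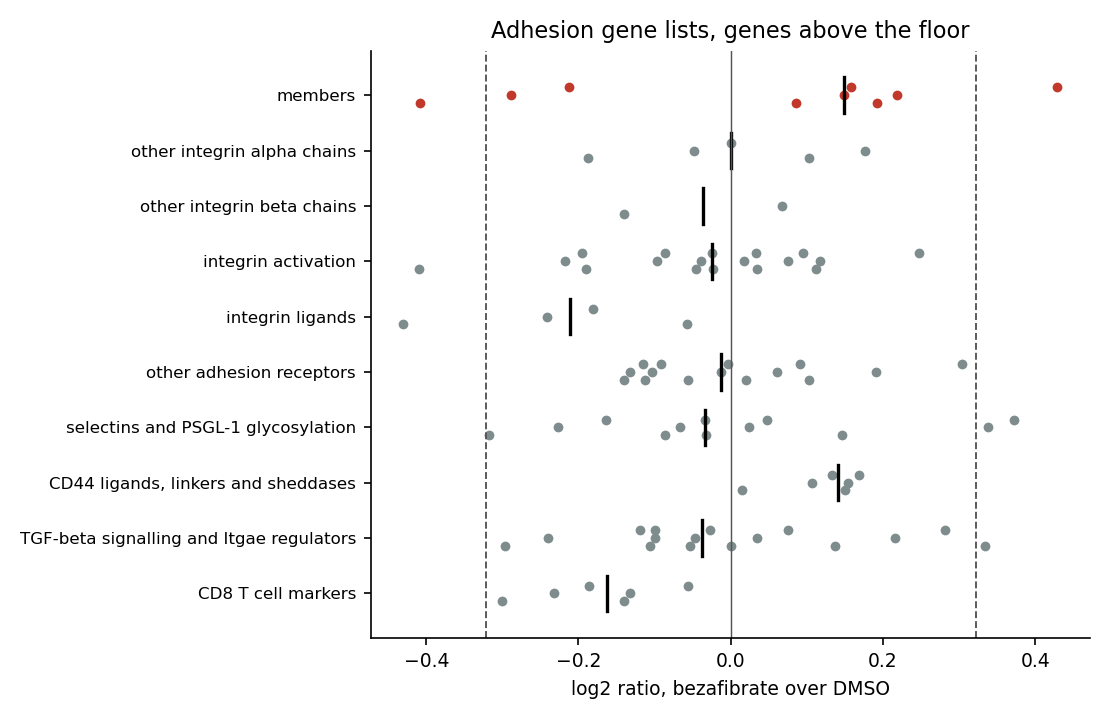
Log2 ratio of bezafibrate over DMSO (horizontal axis) for every gene above the floor in each list, with the 9 members in red, other lists in grey, a black bar at each median and dashed lines at the limit of 0.32. By the brightest probe set of each gene, the members spread from −0.41 to 0.43. The medians of the lists run from −0.21 for integrin ligands to 0.15 for the members.

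In bulk RNA of a culture, fewer cells of a type and less RNA per cell cannot be told apart. The CD8 T cell markers had 6 of 8 listed genes with a value, all 6 above the background limit on both arrays, from 8.61 to 11.05 with bezafibrate and from 8.91 to 11.10 with DMSO. All 6 were lower with bezafibrate, with a median ratio of −0.16 and a summed linear signal of 8687 with bezafibrate against 9618 with DMSO, and their part in the lower values of Itgae, Itgb7 and Selplg was not tested. Of 30 measured markers of 8 other cell types, 21 were within background on at least 1 array. The median over all probe sets, 4.55 with bezafibrate and 4.58 with DMSO, also lay below the background limit of each array. That count therefore does not show that other cells were absent. Their summed linear signal was 1043 with bezafibrate and 1245 with DMSO. Such a sum depends most on the brightest probe set, here that of Cd209a, which had a ratio of −0.45. The sum therefore does not show a general fall of these markers. The markers above the background limit on both arrays had ratios from −0.93 for Fcer1g to 0.27 for Zbtb7b. They were Cd209a (dendritic cell), Cd68 and Csf1r (macrophage or monocyte), Cd79b (B cell) and Fcer1g (natural killer cell). Foxp3 and Zbtb7b (CD4 T cell), Gp9 (platelet) and Kdr (endothelium) were the others. Among them Cd68, Csf1r, Foxp3 and Zbtb7b were higher with bezafibrate and the rest lower. Integrins are carried by many of those cell types, and the part of such cells in the ratios was not tested. Ncr1, Ms4a1, Cd79a, Lyz2, Cd4 and S100a8, listed for natural killer cells, B cells, macrophages, CD4 T cells and neutrophils, were within background on both arrays. Except for neutrophils, the same lists also held a gene above the limit, so these genes do not show that such cells were absent.

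**Figure D4:**
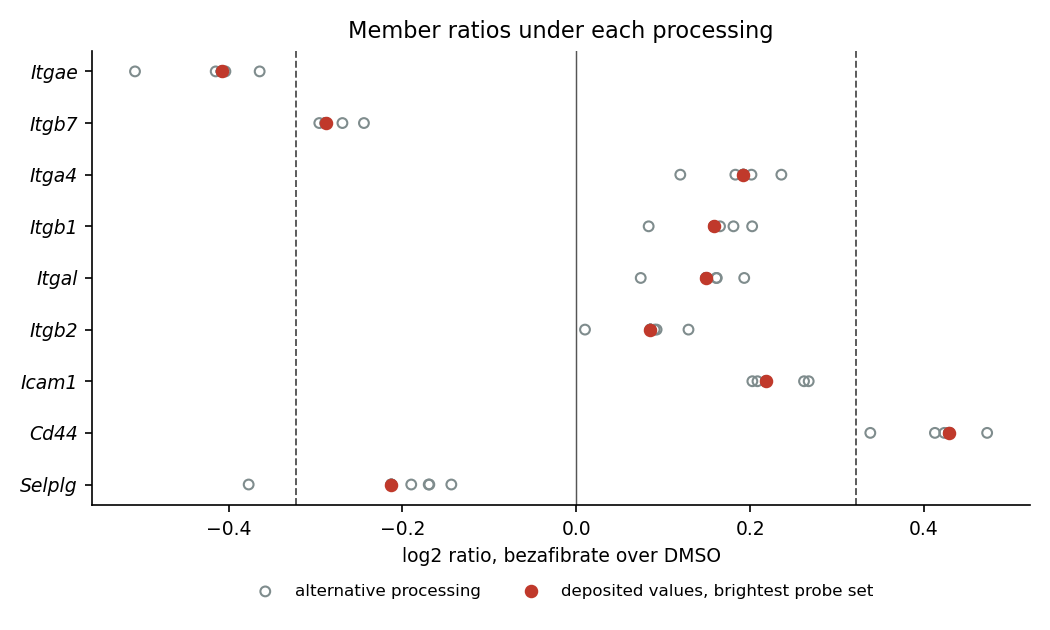
Log2 ratio of bezafibrate over DMSO (horizontal axis) of each member with the deposited values and brightest probe set (red) and under each alternative processing (open grey), with dashed lines at the limit of 0.32. Every member keeps its sign under the alternatives run, Cd44 and Itgae stay outside the dashed lines, and Selplg crosses the lower line with its probe sets averaged.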

How the data were processed

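Total RNA (100 ng) of each culture was amplified with a whole-transcript kit and hybridised, per the labels' protocols, to Affymetrix arrays. The deposited values are log2 signals; per the submitters' processing notes, RMA was run in Affymetrix Expression Console, whose version, like the genome build, is not given in the sources used here. That they are log2 was inferred from their range, from 0.79 to 12.64 with bezafibrate and from 0.75 to 12.68 with DMSO. Ratios were wider at low signal. Of the 1390 receptor genes taken as silent, 32.0% had ratios past the limit of 0.32. Among genes above the floor, 5.83% were higher and 6.33% lower past that limit. Ratios of dim genes are thus less certain, and the number of arrays limits the precision.

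Of 41801 probe sets 33793 had values. Only those naming 1 gene were used, and the brightest by mean signal represented a gene. Ratios are bezafibrate minus DMSO. With 1 array per group no test was run; counts used limits of 0.32 (log2) and 1.5-fold among genes above the floor. The calculation was tested on simulated data, with planted ratios larger than those of any member. The simulated noise was smaller than the spread of ratios here, so the test checks the arithmetic alone. The members and lists were chosen with earlier results of these data known. Named genes are all 9 members, up to 2 of each list with the highest and lowest ratios above the floor, and known partner genes; others, chosen after their values were seen, are named only as cell type markers, as within background or as equal on both arrays. Python 3.11.15, pandas 2.3.3, numpy 2.4.6, statsmodels 0.14.6 and matplotlib 3.10.9 were used. The 9 alternatives covered the floor, the normalization, the choice of probe sets and the trend with level and gene length.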

Additional observations from a re-analysis of the deposited data

How the results depend on the processing

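No paired analysis was possible because each group has 1 array and no test was run; for the same reason no replicate could be left out. Over 9 alternatives every member kept the sign of its ratio, except that Itga4 fell below the floor at the 75th percentile and had no value there. Ratios ran from 0.34 to 0.47 for Cd44 and from −0.51 to −0.36 for Itgae, in each case with one end set by subtracting the median ratio of genes in the same class of level and length. Itgb2, the member nearest 0, ran from 0.01 to 0.13, and the member median from 0.07 to 0.19. The count of members lower past the limit of 0.32 was 2 with probe sets averaged, through Selplg. Of the related genes, 3 higher and 2 lower past that limit became 6 higher with no floor, 1 higher and 0 lower with the floor at the 75th percentile, 5 higher when centred on housekeeping genes, and 1 higher and 4 lower with level and length subtracted. Among all genes, 667 higher and 724 lower became 1626 and 2010 with no floor and 294 and 267 with the higher floor. When centred on housekeeping genes, 976 were higher and 474 lower. A moved floor changes which genes are counted, and that centring raised every ratio by 0.04. The cause of the other moves was not tested. List medians near 0 changed sign with the setting, for example −0.06 to 0.02 for integrin activation and −0.05 to 0.01 for the TGF-β genes; integrin ligands stayed negative (−0.31 to −0.05) and the CD44 list positive (0.05 to 0.19). Differences this small on single arrays have no replicate check.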
